A study of Mus musculus with 4 samples.

Results

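The genes described here are 32 components of the endoplasmic reticulum (ER) folding machinery: chaperones, protein disulfide isomerases, sensors and transcription factors of the unfolded protein response, ER-associated degradation genes and translocon subunits. They were taken by gene symbol from the deposited count table, in which all 32 of the listed symbols were found among 25759. All 32 also passed the filter on low counts, which kept 13306 genes. RNA came from alveolar epithelial type II cells, the surfactant-making cells of the lung alveolus, of C57BL/6 mice aged 14 weeks. Wild-type (WT) mice gave 2 libraries, and mice labelled Sftpc-mTOR transgenic, which carry a conditional active mTOR (mTOR Tg), gave 2 libraries. The Sftpc promoter used in such transgenes drives expression in type II cells and, depending on the construct and its timing, in their progeny. Neither the inducing agent and its schedule, nor the sex of the mice, the isolation of the cells or any pooling was given in the sources used here. P-values therefore measure only the spread between these samples, which may be technical.

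Secretory and membrane proteins enter the ER through the SEC61 channel, are folded there by chaperones of the HSP70, HSP90 and lectin families with disulfide isomerases, and are sent back to the cytosol for degradation when folding fails. When unfolded protein accumulates, the sensors IRE1 (Ern1), ATF6 and PERK (Eif2ak3) are activated. IRE1 splices Xbp1 mRNA and ATF6 is cleaved to a transcription factor, and both raise transcription of chaperone and degradation genes, many of them through ER stress elements in the promoters. Type II cells carry a heavy secretory load, since surfactant proteins B and C are made as precursors in the ER. mTOR is a nutrient- and growth-factor-sensing kinase that drives protein synthesis. Gene counts do not separate spliced from unspliced Xbp1 or cleaved from full-length ATF6.

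The members were listed by symbol as genes of ER folding and the unfolded protein response, many of which are raised through ER stress elements. Matches to these elements are therefore not independent of the choice of members. Such elements were found in 11 of the 25 members with a promoter window (44.0%), and the matching stretches are shown before the values. RefSeq promoter windows on GRCm38.p6, the assembly called mm10, run from 250 bases before to 50 bases after an annotated start, and they were in the table for 25 of the 32 genes. Derl1, Ssr2, Hspa13, Hyou1, Manf, Sec61a1 and Atf6 had none. The motif ERSE was searched as CCAAT and CCACG with 9 bases of any kind between them, and ERSE-II as ATTGG and CCACG with 1 base of any kind between them, each on both strands. ERSE was found in 9 of the 25 genes (36.0%) and in 39 of all 32851 windows (0.119%), which belong to 37 of 27025 genes. ERSE-II was found in 2 of the 25 (8.0%) and in 12 of all windows (0.0365%), which belong to 12 genes, and no gene had both. With up to 1 mismatch allowed in the CCACG part of ERSE, 14 of 25 members (56.0%) and 0.998% of all windows held it. The motif TGACGTGG, a core of the unfolded protein response element bound by XBP1, and TGATGCAAT, a core of the elements bound by ATF4, were in 0 of the 25 and in 0.676% and 0.192% of all windows. A match describes letters in a window and does not show binding, and the absence of a match says only that these letters are not in this window.

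The window of Hspa5, chr2:34771840-34772139 on the plus strand, is given whole, with its ERSE in capitals, because this gene encodes the central HSP70 of the ER.
Hspa5: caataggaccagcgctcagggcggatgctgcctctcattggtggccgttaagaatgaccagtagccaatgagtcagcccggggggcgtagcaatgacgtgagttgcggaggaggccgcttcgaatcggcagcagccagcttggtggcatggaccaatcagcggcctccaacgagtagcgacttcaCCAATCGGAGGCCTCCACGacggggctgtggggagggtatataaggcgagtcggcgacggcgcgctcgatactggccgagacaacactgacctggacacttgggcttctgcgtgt

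For the other members that hold a match, the element stands in capitals with its flanks, read in the direction of the gene, so that Calr, Creld2, Derl3 and 1 of the 2 Hsp90b1 matches show it as its reverse complement.
Hsp90b1, chr10:86705630-86705664, minus strand: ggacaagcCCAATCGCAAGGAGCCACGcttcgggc
Hsp90b1, chr10:86705525-86705559, minus strand: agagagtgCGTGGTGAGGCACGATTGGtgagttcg
Calr, chr8:84847067-84847101, minus strand: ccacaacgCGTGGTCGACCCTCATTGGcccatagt
Canx, chr11:50325792-50325826, minus strand: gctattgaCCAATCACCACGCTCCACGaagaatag
Creld2, chr15:88819512-88819546, plus strand: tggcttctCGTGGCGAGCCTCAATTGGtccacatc
Derl3, chr10:75893234-75893268, plus strand: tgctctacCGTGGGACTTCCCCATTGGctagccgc
Dnajc3, chr14:118937819-118937853, plus strand: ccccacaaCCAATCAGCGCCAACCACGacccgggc
Pdia6, chr12:17266483-17266517, plus strand: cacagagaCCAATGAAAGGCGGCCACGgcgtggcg
Syvn1, chr19:6046524-6046558, plus strand: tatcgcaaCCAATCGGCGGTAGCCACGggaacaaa
Herpud1 (ERSE-II), chr8:94386369-94386395, plus strand: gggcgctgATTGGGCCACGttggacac
Dnajb11 (ERSE-II), chr16:22857844-22857870, plus strand: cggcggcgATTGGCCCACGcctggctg

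**Figure D1:**
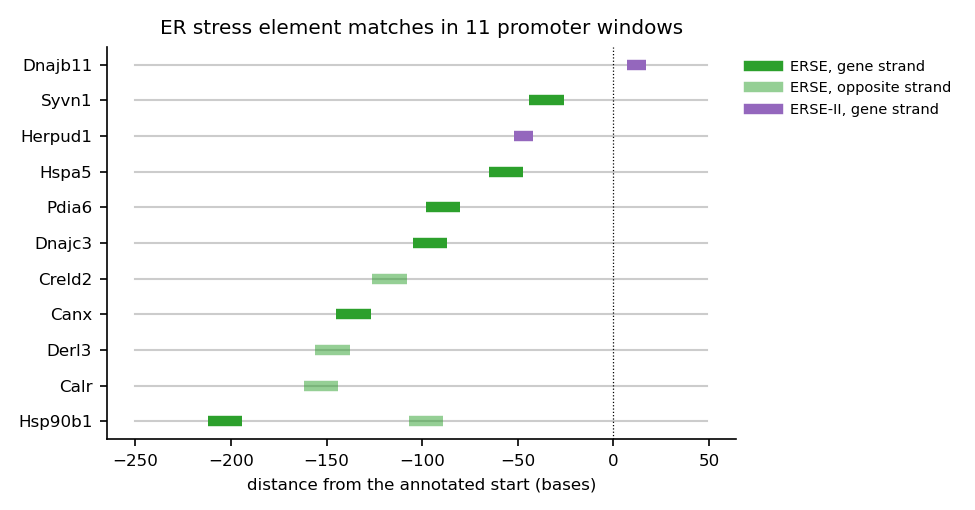
Position of each match relative to the annotated start (horizontal axis, bases; dotted line at the start) in the 11 member windows that hold one. ERSE matches are green, paler where they lie on the strand opposite to the gene, and ERSE-II matches are purple. Hsp90b1 has 2 matches, and the match of Dnajb11 is the only one among these after the RefSeq start of its window.

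The 4 libraries held 18146693 to 21972124 counts, and the 32 genes took 0.599% and 0.615% of them in WT and 0.612% and 0.656% in mTOR Tg. Sftpc led the type II cell markers, whose summed level was 146000 and 125000 CPM (counts scaled to a common library total) in WT replicates 1 and 2 and 119000 and 155000 CPM in mTOR Tg replicates 1 and 2. The library of mTOR Tg replicate 1 differed most from the rest: Pearson's r of log2 CPM over genes, which are not independent replicates, was 0.951 to 0.955 in its pairs and 0.983 to 0.988 in pairs without it. Club cell markers summed to 178000 CPM there, to 93300 and 101000 CPM in WT, and to 64600 CPM in mTOR Tg replicate 2. Goblet cell markers summed to 518 CPM in it and to 285 to 370 CPM elsewhere. In the same library short transcripts were over-represented: genes of the shortest length quartile (up to 1988 nt) had a median log2 difference from the WT mean of 0.44 and genes of the longest quartile (over 4650 nt) of -0.55. In mTOR Tg replicate 2 these medians were -0.004 and 0.002. Endothelial cell markers, led by Kdr, summed to 122 and 131 CPM in WT and to 73.5 and 67.2 CPM in mTOR Tg. Of these 10 genes, 7 were below WT in both mTOR Tg libraries and 0 above, where 17% and 17.6% of all tested genes were. The sums of this low-level list separated by genotype alongside the members, with no gene of the list past the test given below. It was not the only list to separate. Type I cell markers summed to 1900 and 1810 CPM in WT and to 2200 and 2040 CPM in mTOR Tg. Of these 8 genes, 3 were above WT in both mTOR Tg libraries and 0 below. Plasma cell markers, mainly Sdc1, summed to 846 and 815 CPM in WT and to 750 and 805 CPM in mTOR Tg. The part that cell mixture plays in the results was not tested, and fewer cells of a type and less RNA per cell cannot be told apart in bulk samples.

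In the WT libraries the abundant lumenal chaperones and disulfide isomerases stood far above the sensor genes. Club cell markers summed to 93300 and 101000 CPM in these libraries, beside 146000 and 125000 CPM for type II cell markers. The levels are therefore those of the whole isolate and cannot be assigned to type II cells alone. Compared per transcript length, as TPM (counts divided by length and scaled to a common total) averaged over the WT libraries, the 3 most abundant of the 32 were Calr at 317 TPM, P4hb at 313 TPM and Hsp90b1 at 305 TPM. Pdia3 at 256 TPM, Pdia6 at 254 TPM and Hspa5 at 249 TPM formed the next tier. Calr (316 and 317 TPM in the WT replicates) and P4hb (310 and 317 TPM) did not differ beyond their spread. Nor did Pdia3, Pdia6 and Hspa5, the last with WT replicates at 238 and 261 TPM. Among the genes of the control layer Xbp1 stood at 120 TPM, Ern1 at 16.8 TPM and Atf6 at 14.5 TPM. The least abundant was Derl3, at 2.51 and 1.62 TPM in the WT libraries.

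**Figure D2:**
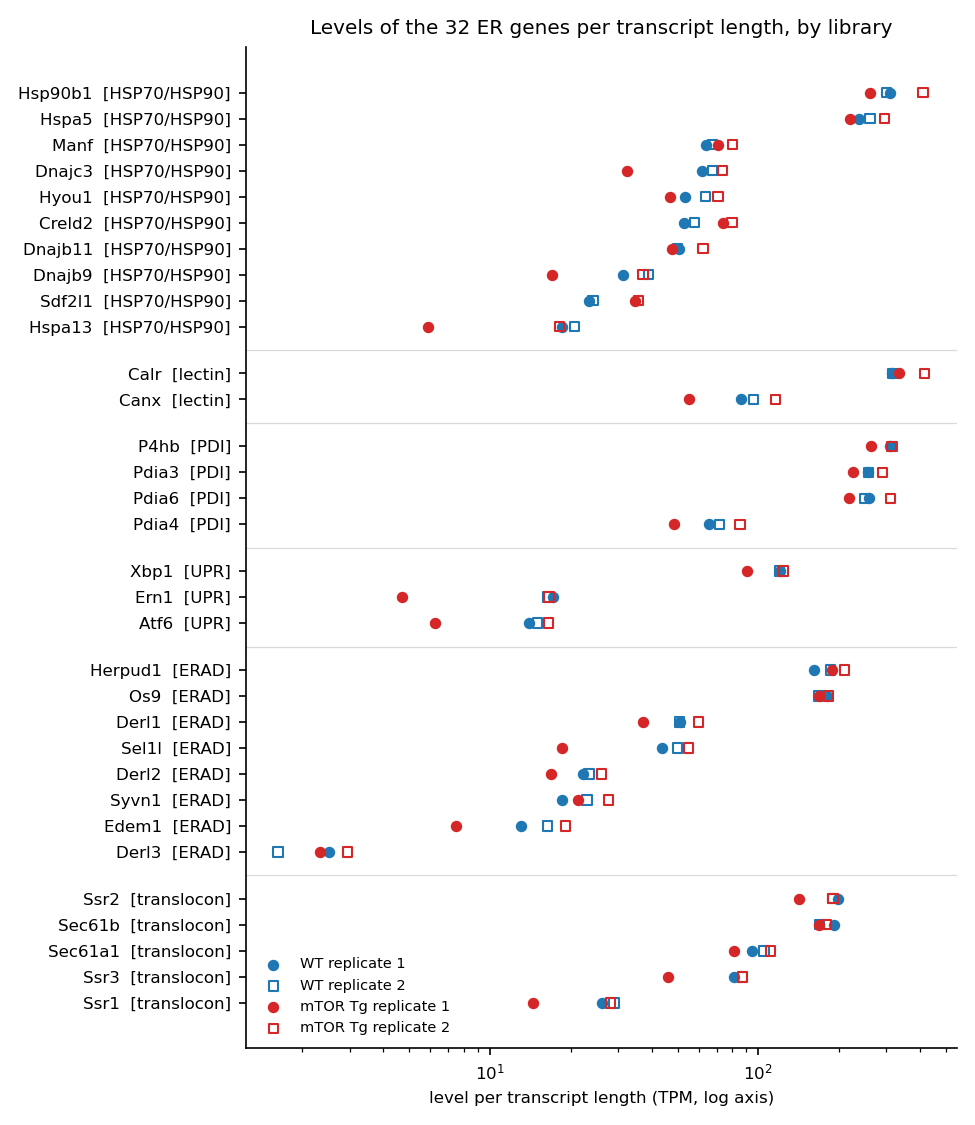
Level of each gene per transcript length (horizontal log axis, TPM) in each of the 4 libraries (blue WT, red mTOR Tg; filled circles replicate 1, open squares replicate 2), grouped by role. WT levels run from 1.62 TPM for Derl3 to 317 TPM for Calr. TPM shifts with the length make-up of a library and is used here to compare genes, not genotypes.

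Between genotypes, more of the 32 genes lay above WT than below it, and no gene passed the test. Both mTOR Tg libraries were above both WT libraries in normalised CPM (CPM on TMM-scaled library sizes) for 15 of the 32 genes (46.9%), where 17.6% of all tested genes were. Both were below for 4 genes, where 17% of all tested genes were. Under the other 4 scalings tried, 12 to 17 were above and 4 to 6 below. Over all tested genes the shares were then 15.3% to 18.5% above and 16.3% to 18.7% below. edgeR's quasi-likelihood test with Benjamini-Hochberg adjustment at 0.05 called 0 of the 32 genes and 0% of the 13306, with a smallest adjusted p of 0.860 among the members. At an unadjusted p under 0.05 there were 2 members, both higher in mTOR Tg, beside 2.46% of all genes in either direction and 1.54% higher. limma-voom also called 0 of the 32 (0% of all genes), and DESeq2 called 0 of the 32 beside 12 of all genes (0.0902%). The median log2 fold change of the 32 was 0.09, beside 0.01 over all tested genes, with 21 positive and 11 negative. Against the WT mean the median was 0.15 for the first mTOR Tg library and 0.11 for the second. The signed difference between the WT replicates (replicate 2 minus replicate 1) had a median of 0.02. Its values ran from -0.67 to 0.245, with 18 genes positive and 14 negative, so the median does not measure their spread.

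With mTOR Tg replicate 1 left out, 0 of the 32 were called beside 2.2% of all genes, and with replicate 2 left out, 18 were called, beside 45.5% of all genes: 9 higher (all genes 21.8%) and 9 lower (all genes 23.6%). The 9 higher were Calr, Dnajb11, Sdf2l1, Manf, Creld2, Herpud1, Syvn1, Sec61b and Os9, and the 9 lower were Dnajb9, Dnajc3, Atf6, Sel1l, Edem1, Ern1, Hspa13, Ssr1 and Ssr3. Such fits leave 1 mTOR Tg library, with the variability of WT taken for it, so those calls carry no replication of the genotype.

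**Figure D3:**
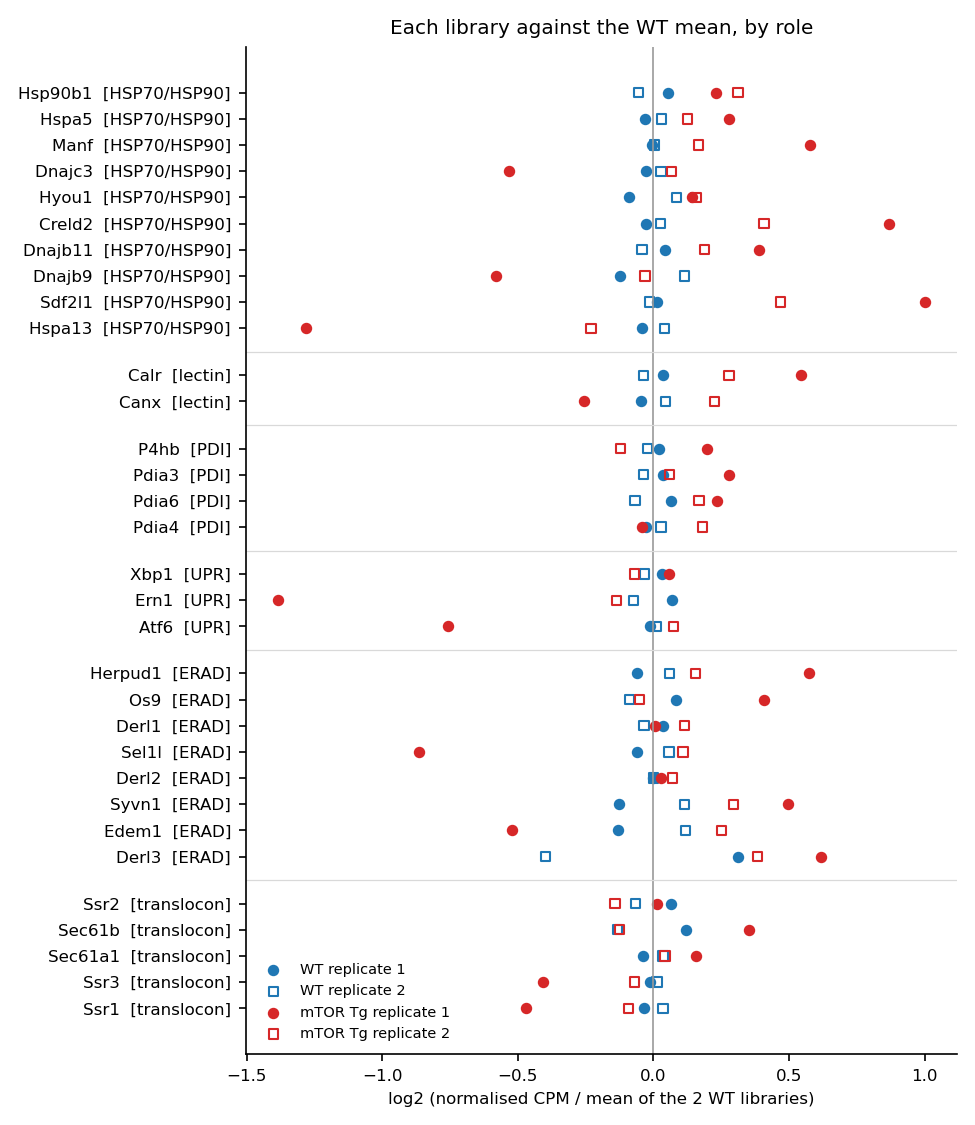
Difference of each library from the mean of the 2 WT libraries (horizontal axis, log2 of normalised CPM ratio) for the 32 genes by role, with the same symbols as the plot of levels. The red circles (mTOR Tg replicate 1) spread from Ern1 and Hspa13 on the left to Sdf2l1 on the right, while the red squares (mTOR Tg replicate 2) lie between -0.23 and 0.46.

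HSP70 and HSP90 chaperones and their cofactors were grouped as 1 role of 10 genes, in which Manf and Creld2 were also placed. Of these 10, 7 were above WT in both mTOR Tg libraries (17.6% of all tested genes were) and 1 was below (17% were). Sdf2l1 and Creld2 had the smallest p-values of the 32. Sdf2l1, a lumenal partner of the ER DNAJ proteins, was at 16.7 and 16.4 normalised CPM in WT replicates 1 and 2 and at 33.1 and 22.9 in mTOR Tg replicates 1 and 2. Both mTOR Tg libraries were above WT, at 2.0-fold and 1.38-fold of the WT mean, and the WT pair differed far less. The log2 fold change was 0.76 (SE 0.25, edgeR unadjusted p = 0.0268, adjusted p = 0.860). Creld2, a disulfide isomerase-like ER protein known as a marker of ER stress, was at 46.7 and 48.4 CPM in the WT pair and 86.8 and 63.1 in the transgenic pair. These were 1.83-fold and 1.33-fold of the WT mean, a log2 fold change of 0.66 (SE 0.23, edgeR unadjusted p = 0.0313, adjusted p = 0.860). With mTOR Tg replicate 1 left out, the log2 fold changes were 0.46 for Sdf2l1 and 0.41 for Creld2, and with replicate 2 left out they were 0.997 and 0.87. Sdf2l1 lies on chromosome 16 from 17130138 to 17132383 and Creld2 on chromosome 15 from 88819646 to 88826683.

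Hspa5 (BiP), the ER HSP70 that also holds the stress sensors inactive, was at 563 and 586 CPM in the WT pair and 697 and 627 in the transgenic pair, with no overlap between genotypes. Its log2 fold change was 0.21 (SE 0.20, adjusted p = 0.860 in edgeR), and 0.13 with mTOR Tg replicate 1 left out. Hsp90b1 (GRP94), the ER HSP90, was at 562 and 521 CPM in the WT pair and 636 and 672 in the transgenic pair. Here replicate 2, not replicate 1, was the higher of the mTOR Tg libraries, and the log2 fold change was 0.27 (SE 0.20, adjusted p = 0.860 in edgeR). Hspa5 lies on chromosome 2 from 34771970 to 34777547 and Hsp90b1 on chromosome 10 from 86690209 to 86705509. Gene positions are those of GENCODE M21, whereas the promoter windows use RefSeq starts. For Hspa5 the GENCODE start lies upstream of the RefSeq start, and the ERSE lies between them. Exons of Hsp90b1, Manf, Sec61a1, Ssr2, Derl2, Syvn1, Pdia6, Pdia3 and Dnajb9 overlap annotated genes on the opposite strand. Those of Hsp90b1, Manf and Pdia4 overlap annotated genes on the same strand. Over both strands together the overlap is 632 bases or fewer per gene. Whether the counting used strand was not given in the sources used here. Reads from such partners cannot be told apart.

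Manf, Dnajb11 and Hyou1 were also above WT in both mTOR Tg libraries. Manf encodes a secreted ER stress-inducible protein and was at 92.3 and 92.9 CPM in the WT pair and 138 and 104 in the transgenic pair. Dnajb11, a BiP co-chaperone, was at 81.7 and 77.1 CPM in the WT pair and 104 and 90.4 in the transgenic pair. Hyou1, the nucleotide exchange factor of BiP, was at 155 and 175 CPM in the WT pair and 182 and 184 in the transgenic pair. The log2 fold changes of these genes were 0.38, 0.29 and 0.15 in the same order. With mTOR Tg replicate 1 left out, Manf was at 0.17 and Dnajb11 at 0.19, and with WT replicate 1 left out, Hyou1 was at 0.063. Hyou1 was at 0.24 with WT replicate 2 left out.

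The remaining HSP70 and DNAJ genes ran the other way in mTOR Tg replicate 1. Dnajb9 (ERdj4), an XBP1 target that represses IRE1, was at 49.7 and 58.6 CPM in the WT pair and 36.2 and 53.0 in the transgenic pair. Replicate 2 lay inside the WT range and replicate 1 below it. Dnajc3 (P58IPK), a BiP co-chaperone, was at 204 and 212 CPM in the WT pair and 144 and 218 in the transgenic pair, so that the mTOR Tg libraries lay on either side of WT. Hspa13, a microsomal HSP70-like ATPase, was the one gene of this role below WT in both, at 50.8 and 53.8 CPM in the WT pair and 21.5 and 44.6 in the transgenic pair. Its log2 fold change was -0.66 (SE 0.36, adjusted p = 0.860 in edgeR), with -0.23 when mTOR Tg replicate 1 was left out and -1.28 when replicate 2 was.

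Of the lectin chaperones, which hold glycoproteins in the folding cycle, the lumenal one was higher than WT in each mTOR Tg library and the membrane-bound one overlapped WT. Calr, which encodes the lumenal calreticulin, was at 445 and 424 CPM in the WT pair and 634 and 527 in the transgenic pair, a log2 fold change of 0.42 (SE 0.21, adjusted p = 0.860 in edgeR). The mTOR Tg libraries were at 1.46-fold and 1.21-fold of the WT mean, and with the first of them left out the log2 fold change was 0.28. Canx, which encodes the membrane-bound calnexin, was at 237 and 252 CPM in the WT pair and 205 and 286 in the transgenic pair, and the groups overlapped with a log2 fold change of 0.01 (SE 0.24). The difference between the pair of genes was not tested. Calr lies on chromosome 8 from 84841850 to 84846934.

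Protein disulfide isomerases form and rearrange disulfide bonds. P4hb, the most abundant of them, was at 572 and 555 CPM in the WT pair and 647 and 518 in the transgenic pair, above WT in replicate 1 and below it in replicate 2. Pdia6 was at 364 and 332 CPM in the WT pair and 409 and 391 in the transgenic pair, and Pdia3, the partner of the lectin chaperones, at 457 and 435 CPM in the WT pair and 541 and 465 in the transgenic pair. Each mTOR Tg library exceeded both WT libraries for these genes, with log2 fold changes of 0.20 (SE 0.20) and 0.17 (SE 0.20), the latter 0.059 and 0.28 with mTOR Tg replicate 1 or 2 left out. Pdia4 overlapped between genotypes, at 102 and 106 CPM in the WT pair and 101 and 118 in the transgenic pair. The 4 genes together summed to 1490 and 1430 CPM in WT and to 1700 and 1490 CPM in mTOR Tg.

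None of the 3 sensor and transcription factor genes was above WT in both mTOR Tg libraries. Ern1, which encodes the kinase and ribonuclease IRE1 alpha, was at 77 and 69.7 CPM in the WT pair and 28.1 and 66.7 in the transgenic pair. Replicate 1 was at 0.383 of the WT mean, while replicate 2 was just under the lower WT library. The log2 fold change was -0.63 (SE 0.41, adjusted p = 0.860 in edgeR), with -0.14 when mTOR Tg replicate 1 was left out and -1.38 when replicate 2 was. Atf6 was at 65.3 and 66.4 CPM in the WT pair and 39.0 and 69.3 in the transgenic pair, on both sides of WT, a log2 fold change of -0.28 (SE 0.31) that was 0.07 when mTOR Tg replicate 1 was left out and -0.76 when replicate 2 was. Xbp1, whose total transcript is counted here, was nearly level at 164 and 157 CPM in the WT pair and 167 and 153 in the transgenic pair (log2 fold change -0.01, SE 0.19). Ern1 lies on chromosome 11 from 106394650 to 106487852, Atf6 on chromosome 1 from 170704674 to 170867771 and Xbp1 on chromosome 11 from 5520659 to 5525893.

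Of the 8 genes of ER-associated degradation, 4 were above WT in both mTOR Tg libraries and 0 below, where 17.6% and 17% of all tested genes were. Those 4 include Derl2, whose log2 fold change was only 0.05. Herpud1, a stress-induced scaffold of the HRD1 complex, was at 204 and 222 CPM in the WT pair and 317 and 237 in the transgenic pair, a log2 fold change of 0.38 (SE 0.23, adjusted p = 0.860 in edgeR). That was 0.15 with mTOR Tg replicate 1 left out and 0.58 with replicate 2 left out. Syvn1, which encodes the ubiquitin ligase HRD1 itself, was at 41.3 and 48.8 CPM in the WT pair and 63.5 and 55.3 in the transgenic pair, a log2 fold change of 0.40 (SE 0.21, adjusted p = 0.860 in edgeR). Both genes had mTOR Tg replicate 1 as the highest library. Sel1l, the adaptor that stabilises HRD1, did not share this order, at 178 and 193 CPM in the WT pair and 102 and 200 in the transgenic pair. Os9, the lectin that brings glycoproteins to the complex, was at 305 and 271 CPM in the WT pair and 382 and 278 in the transgenic pair. Edem1, which marks glycoproteins for disposal, was at 49.3 and 58.5 CPM in the WT pair and 37.6 and 64.1 in the transgenic pair. These 3 genes overlapped between genotypes.

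The derlins, channel-like proteins of the same pathway, varied little where they were well counted. Derl1 lay at 104 and 99.1 CPM in the WT pair and 102 and 110 in the transgenic pair, and Derl2 at 52.5 and 52.6 CPM in the WT pair and 53.6 and 55.2 in the transgenic pair. Derl3, an XBP1-dependent derlin abundant in plasma cells, had 39 and 26 counts in the WT pair and 54 and 47 in the transgenic pair, or 2.14 and 1.31 CPM and 2.65 and 2.25 CPM. The WT replicates of Derl3 were -0.67 apart on the log2 scale (replicate 2 minus replicate 1), more than the log2 fold change of 0.51 (SE 0.38) between genotypes, which was 0.19 to 0.89 with a library left out. Of the 11 plasma cell markers, Ighg1 and Tnfrsf17 had no count in any library and Jchain had 1, 1, 1 and 0 counts, while the list's summed 750 to 846 CPM came mainly from Sdc1, which epithelial cells also express.

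Translocon genes had the role median nearest to 0, at -0.06 (log2 fold change). This depends on the scale. With the transcript length trend of each library taken off, as described below, the translocon median was -0.195, the lowest of the 6 roles. On that scale the median of the disulfide isomerases, at 0.054, was nearest to 0. Sec61b, a small subunit of the channel, was at 69.7 and 58.4 CPM in the WT pair and 81.7 and 58.7 in the transgenic pair, with replicate 2 inside the WT range. Sec61a1, the pore subunit, was at 194 and 204 CPM in the WT pair and 222 and 205 in the transgenic pair, where the genotypes did not overlap but WT replicate 2 and mTOR Tg replicate 2 were nearly level. The subunits of the translocon-associated protein complex overlapped WT or lay below it. Ssr3 was at 155 and 158 CPM in the WT pair and 118 and 149 in the transgenic pair (log2 fold change -0.23, SE 0.21), and Ssr1 was at 158 and 166 CPM in the WT pair and 117 and 152 in the transgenic pair (log2 fold change -0.26, SE 0.22). With mTOR Tg replicate 1 left out these were -0.067 and -0.087, and with replicate 2 left out -0.41 and -0.47. Ssr2 overlapped, at 151 and 138 CPM in the WT pair and 146 and 131 in the transgenic pair. As a role, translocon genes summed to 728 and 724 CPM in the WT pair and 685 and 696 in the transgenic pair.

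**Figure D4:**
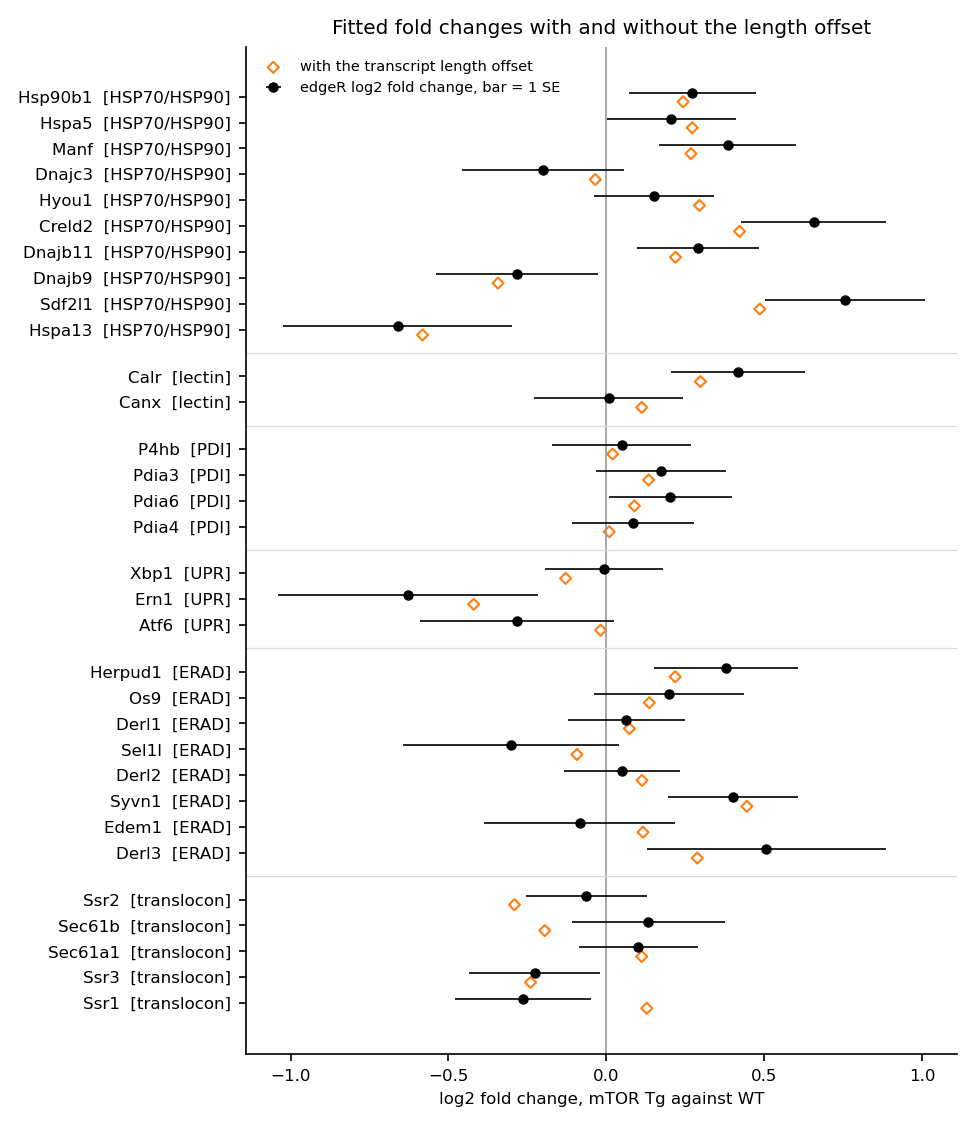
Fitted log2 fold change of mTOR Tg against WT for each gene (black points, bars 1 SE, n = 2 libraries per genotype) and the same with the transcript length trend of each library taken off (orange diamonds). Sdf2l1 moves from 0.76 to 0.49 and Creld2 from 0.66 to 0.42, while Ssr1 goes from -0.26 to 0.13 and Sec61b from 0.13 to -0.20.

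In mTOR Tg replicate 1 the members' differences from WT ran with transcript length. Across the 32 genes, Spearman's rho between length and the difference from the WT mean was -0.706 in replicate 1 and -0.215 in replicate 2, where over 13137 tested genes with a length it was -0.582 and 0.00188. The points within a library share its preparation and depth, and members of 1 pathway are not independent. The 6 members in the shortest quartile had a median difference of 0.60 in replicate 1, beside 0.44 for all genes of that quartile, and the 6 in the longest had -0.64, beside -0.55. Several genes with high values are short (Sdf2l1 1108 nt, Creld2 1366 nt) and several with low values are long (Ern1 6946 nt, Atf6 7246 nt, Sel1l 6300 nt). With the length trend of each library taken off, the median log2 fold change of the 32 was 0.11, beside 0.01 over all genes, and 0 members were called.

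On that length-adjusted scale 13 members had both mTOR Tg libraries above both WT libraries (18.2% of all tested genes did) and 6 below (17.7%). Sdf2l1 lay 0.50 and 0.47 above the WT mean in mTOR Tg replicates 1 and 2 (log2), Creld2 0.44 and 0.41, Calr 0.32 and 0.27, and Hspa5 0.40 and 0.13. The 2 mTOR Tg libraries were thus closer to each other for Sdf2l1, Creld2 and Calr than before adjustment. For Hspa5, Syvn1 and Hyou1 they were further apart, with Hyou1 at 0.148 and 0.159 before and 0.425 and 0.158 after. Ern1 lay at -0.76 and -0.14 and Hspa13 at -1.05 and -0.23, still with replicate 1 far lower. Atf6 lay at -0.11 and 0.07. Under all 5 scalings tried, 10 members had both mTOR Tg libraries above both WT libraries, beside 11.3% of all genes: Hspa5, Hsp90b1, Pdia3, Calr, Dnajb11, Sdf2l1, Manf, Creld2, Herpud1 and Syvn1. Ern1, Hspa13 and Ssr3 were below under all 5, beside 11.1% of all genes.

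**Figure D5:**
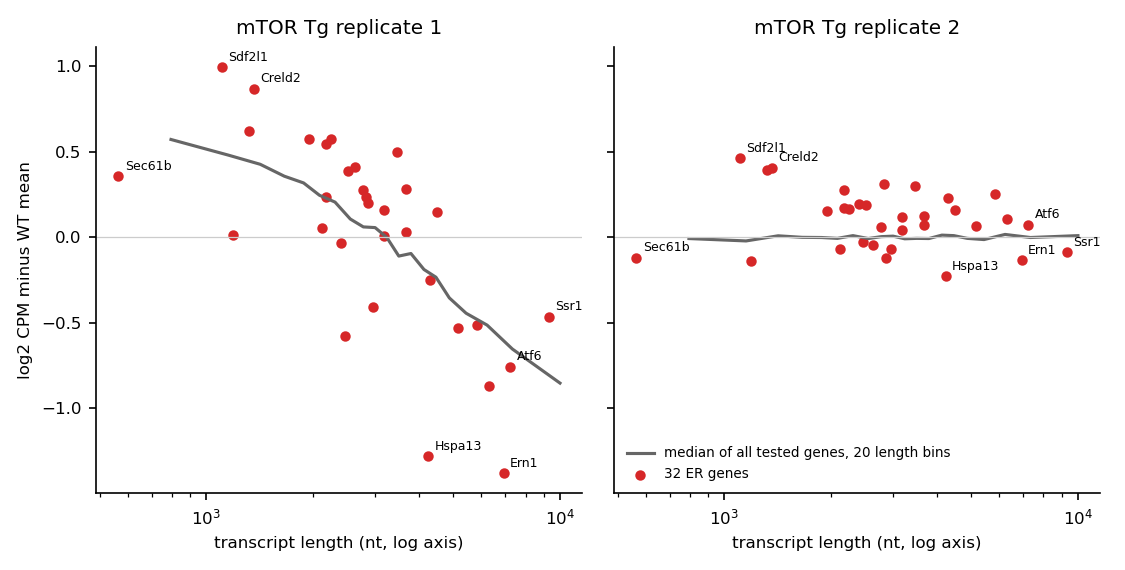
Difference from the WT mean (vertical axis, log2 CPM) against transcript length (horizontal log axis, nt) for the 32 genes (red) in mTOR Tg replicate 1 (left) and replicate 2 (right), with the median of all tested genes in 20 length bins (grey). The grey line falls with length in replicate 1 and is flat in replicate 2. Ern1 and Hspa13 lie below it in both panels, and Sdf2l1 and Creld2 above it.

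The values of the members can also be read by the promoter elements shown above. Of the 11 genes whose windows hold an ERSE or ERSE-II, 9 had both mTOR Tg libraries above both WT libraries in normalised CPM (81.8%) and 0 below, whereas all tested genes with a window gave 17.4% above. Of these 9, Pdia6 and the little-counted Derl3 overlapped between genotypes on the length-adjusted scale. In mTOR Tg replicate 2 alone, the library without the length trend, all 11 were above both WT libraries, by 0.07 to 0.41 from the WT mean (log2), where 34.3% of all tested genes with a window were. Their median was 0.39 above WT in replicate 1 and 0.23 in replicate 2. Of the 14 members with a window and neither element, 3 were above in both libraries and 3 below, and their medians were -0.003 and -0.038 in the same libraries. The 7 members without a window, whose motif status is unknown, had 3 above in both libraries (42.9%) and 1 below (14.3%). In replicate 2 alone, 5 of these 7 (71.4%) and 6 of the 14 (42.9%) were above both WT libraries. Canx and Dnajc3 were the 2 carriers with mTOR Tg replicate 1 below WT. Pdia3, Derl2 and Sdf2l1 were above in both without an exact match.

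Outside the members, 15 tested genes held an ERSE or ERSE-II. Of these, 1 (6.67%) was above WT in both mTOR Tg libraries and 4 (26.7%) were below, beside 17.4% and 17.0% of all tested genes with a window. Their medians were -0.17 and -0.13 in replicates 1 and 2. The grouping by motif was made with the members' values known and is given as a description, with no test.

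Other genes of the pathway were counted from 6 lists. No gene of any list was called in either direction by edgeR (0% of 13306 genes), out of 30 tested ER folding enzymes and cofactors, 23 genes of glycosylation and glycoprotein quality control, 20 of translocon, signal recognition and signal peptidase, 27 of ER-associated degradation, 11 of the PERK and ATF4-CHOP branch and 20 of other regulators. Both mTOR Tg libraries were above both WT libraries in 5, 2, 2, 4, 4 and 0 of them in the same order, where 17.6% of all tested genes were. Both were below in 4, 1, 2, 4, 1 and 4, where 17% of all tested genes were. The list medians in mTOR Tg replicate 2 lay between -0.04 and 0.02. In replicate 1 they lay between 0.01 and 0.29, and with the length offset the fitted medians lay between -0.05 and 0.01.

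In the PERK branch, which slows translation and induces ATF4, the library differences did not share 1 direction. Eif2ak3, which encodes PERK, was at 36.1 and 40.5 CPM in the WT pair and 24.2 and 40.7 in the transgenic pair. Atf4 was at 116 and 115 CPM in the WT pair and 168 and 81.2 in the transgenic pair, on opposite sides of WT. Ddit3 (CHOP), the stress-induced transcription factor, was at 7.91 and 7.58 CPM in the WT pair and 12.6 and 8.33 in the transgenic pair, above WT in both. Asns, the asparagine synthetase gene and an ATF4 target, was at 13.5 and 15.8 CPM in the WT pair and 26.2 and 20.5 in the transgenic pair (log2 fold change 0.68, SE 0.24, adjusted p = 0.860 in edgeR). Chac1, a glutathione-degrading ATF4-CHOP target, had 9 and 17 counts in the WT pair and 43 and 23 in the transgenic pair.

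Regulators of secretory capacity included genes below WT. Bhlha15 (MIST1), a transcription factor of secretory cells and an XBP1 target, was at 9.0 and 10.7 CPM in the WT pair and 4.71 and 6.03 in the transgenic pair. Its log2 fold change was -0.87 (SE 0.26, edgeR unadjusted p = 0.0178, adjusted p = 0.860) and -0.83 with the length offset. Creb3l1 (OASIS), an ATF6-like transcription factor, was at 81.1 and 75.6 CPM in the WT pair and 63.2 and 55.5 in the transgenic pair (log2 fold change -0.40, SE 0.19). Neither gene overlapped between genotypes.

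Ern2, Agr2 and Fkbp11 are ER genes of secretory cells, and none was past the test. Ern2, the IRE1 beta gene of mucous cells, was at 1.26 and 1.52 CPM in the WT pair and 2.06 and 0.67 in the transgenic pair, and Agr2, a disulfide isomerase for mucins, at 5.16 and 2.98 CPM in the WT pair and 6.03 and 2.44 in the transgenic pair. Ern2 and Agr2 were highest in mTOR Tg replicate 1 and lowest in mTOR Tg replicate 2, as were the summed club cell markers, and Agr2 is itself on the goblet cell list. The part of those cells in these values was not tested. Fkbp11, an ER prolyl isomerase of secretory cells, was at 5.0 and 6.47 CPM in the WT pair and 4.96 and 6.85 in the transgenic pair, highest in mTOR Tg replicate 2.

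In the remaining lists the genes with the smallest p-values were spread over both directions. Pdia2 had 12 and 9 counts in the WT pair and 30 and 19 in the transgenic pair, and Cnpy4, a saposin-like ER protein, was at 12.0 and 11.4 CPM in the WT pair and 15.8 and 13.8 in the transgenic pair. Prkcsh, the beta subunit of glucosidase II, was at 101 and 96.0 CPM in the WT pair and 163 and 107 in the transgenic pair, while the mannosidase-like Edem3 was at 59.6 and 74.4 CPM in the WT pair and 22.5 and 63.4 in the transgenic pair. The signal recognition particle genes Srp72 and Srp54b were below WT in both libraries, with Srp72 at 78.0 and 77.3 CPM in the WT pair and 51.8 and 65.6 in the transgenic pair, and Srp54b, which has near-identical copies, at 51.8 and 55.3 CPM in the WT pair and 38.3 and 46.0 in the transgenic pair. Of the degradation list, Tmub1 was at 13.2 and 13.3 CPM in the WT pair and 24.5 and 15.9 in the transgenic pair, and Faf2, which recruits the extracting ATPase, was at 91.2 and 89.3 CPM in the WT pair and 74.8 and 75.9 in the transgenic pair.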

How the data were processed

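The authors deposited 1 table of whole-number read counts per gene symbol for the 4 libraries. HISAT2, edgeR and the build mm10 are named, per the submitters' processing notes, with no versions. The counting program, its annotation and its use of strand: not given in the sources used here. Columns were tied to samples by the sample names in the labels.

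The model was edgeR 4.0.16 (R 4.3.3) on the counts as deposited: filterByExpr by group (minimum count 10), TMM scaling, glmQLFit without the legacy option and glmQLFTest with genotype as the only term, adjusted over all 13306 tested genes. The SE is the log2 fold change divided by the root of F. Differences between libraries are on log2 CPM with a prior count of 2. Transcript lengths are those of the longest basic protein-coding transcript in GENCODE M21 (GRCm38), found for 98.7% of tested genes. The length offset takes off a lowess trend (span 0.3) of each library's log2 deviation on length. The fits were run on simulated data that gave all genes and both genotypes a common spread. In the real libraries the biological coefficient of variation (spread between replicates beyond counting error) was 0.0892 in WT and 0.327 in mTOR Tg. The simulation therefore does not show how the fits behave under this unequal spread. limma 3.58.1 and DESeq2 1.42.0 were alternatives. The non-overlap counts under other scalings and the grouping by promoter motif were chosen after seeing the data. With 2 samples against 2, an exact permutation test cannot go below p = 0.333. In these libraries 3 counts equal 0.137 to 0.165 CPM, which covers counting error only.

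Members, lists and named genes were chosen with earlier results of these data known. Values per library are given for Hspa5, Hsp90b1, Xbp1, Ern1, Atf6, Herpud1, Sec61b, Sdf2l1, Dnajb9 and Derl3, and in each role for the most abundant gene and the 2 smallest p-values. Other members' values were added after they were seen. Of each pathway list the 2 smallest p-values are named, with Ddit3, Atf4, Eif2ak3, Ern2, Agr2 and Fkbp11. Summed markers are on raw library totals; fibroblast markers summed to 32.2 to 62.7 CPM, ciliated 2430 to 4220, type I 1810 to 2200 and leukocyte 972 to 2870, the last mainly Lyz1, with Cd3e and C1qb at 0 counts.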

Additional observations from a re-analysis of the deposited data

How the results depend on the processing

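Under the other scalings, filters and tests and the looser threshold, 0 of the 32 genes were called; leaving out each library gave 0 to 18. Over all genes the count, 0 in the analysis reported, was 12 with DESeq2, 37 with the replicate block, 58 with the replicate block and the length offset, and 11 to 6199 with a library left out. The replicate numbers are not said to pair mice: deviations of same-numbered libraries correlated at 0.0713 across 13306 genes. The median log2 fold change of the 32 was 0.031 on library totals, 0.121 with upper-quartile factors, and 0.066 to 0.152 with a library left out; the causes were not tested. On library totals mTOR Tg replicate 1 shifts by -0.108 (log2) for every gene, and 12 members lay above WT and 6 below, beside 15.3% and 18.7% of all tested genes.

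Some single log2 fold changes turned sign. On library totals Canx was -0.042, Derl2 -0.011 and P4hb -0.022; with upper-quartile factors Xbp1 was 0.024; Canx was -0.011 with limma-voom and with the replicate block. With the length offset Edem1 was 0.116, Sec61b -0.195 and Ssr1 0.128, and with the block as well Edem1 0.112, Sec61b -0.197, Ssr1 0.113 and Pdia4 -0.004. With a library left out the ranges that crossed 0 were -0.036 to 0.193 for Pdia4, -0.253 to 0.229 for Canx, -0.532 to 0.067 for Dnajc3, -0.072 to 0.055 for Xbp1, -0.757 to 0.073 for Atf6, -0.871 to 0.105 for Sel1l, -0.52 to 0.25 for Edem1, -0.126 to 0.352 for Sec61b, -0.144 to 0.012 for Ssr2, -0.051 to 0.41 for Os9 and -0.121 to 0.199 for P4hb. The other members kept their sign under every alternative run.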
